A study of Mus musculus with 12 samples.

Results

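The 10 genes described here belong to the integrated stress response and were followed in mouse embryonic fibroblasts (MEFs): Atf4, Atf5, Ddit3 (which encodes CHOP), Atf3, Cebpb, Trib3, Nupr1, Ddit4 (REDD1), Chac1 and Ppp1r15a (GADD34). They were taken by symbol as the regulators around ATF4 and CHOP and are 10 of the 24062 gene symbols of the count table. No cut on a measured value was used, but earlier results of these data were known when they were chosen. Counts of how many of them changed are therefore descriptions. All 10 passed the filter on low counts and are among the 12154 genes tested. The libraries come from poly(A) RNA of MEFs that stably express a retroviral shRNA. One line, shRenilla, carries a control shRNA against Renilla luciferase, and the other, shBruce, carries shBruce#1 against Birc6, the gene of the large ubiquitin-conjugating protein BRUCE. Each line was kept in full medium (FM) or starved for 2 h in medium without serum and amino acids (Starv), with 3 replicate libraries in each of the 4 conditions. With 1 line for each shRNA, the knockdown and other differences between the lines cannot be told apart. Starvation here removes serum and amino acids together, and the media may differ in other components, so these effects cannot be told apart either. The labels do not say that replicates were separate cultures, so p-values measure the spread between these libraries, which may be technical.

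In the integrated stress response, kinases such as GCN2, which senses uncharged tRNA, and PERK, which senses unfolded protein in the endoplasmic reticulum (ER), phosphorylate the translation factor eIF2alpha. General translation then falls while the Atf4 mRNA, which carries upstream open reading frames, is translated more. ATF4 pairs with other bZIP proteins, among them the C/EBP family, on composite sites (CARE) and induces CHOP, ATF3, TRIB3, CHAC1 and genes for the synthesis, uptake and tRNA charging of amino acids, while GADD34 brings phosphatase back to eIF2alpha. The counts report mRNA, so changes in ATF4 translation were not measured.

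The promoters were read because ATF4 dimers bind CARE sites and because ATF/CREB dimers bind the cyclic AMP response element (CRE). Windows of 250 bases before the RefSeq start site (GRCm38.p6) were found for all 10 genes, 11 windows in all. A CARE match (TGATGNAA on either strand) stood in the windows of Chac1, Atf3 and Nupr1, and a CRE match (TGACGTCA) in that of Ppp1r15a. Among all 32851 RefSeq windows of this length, 3.45% held the CARE letters and 1.55% the CRE letters. The ER stress response element (ERSE, searched on either strand) was in none of the 11 windows and in 0.11% of all windows. A match is a string of letters and no evidence of binding. The 4 genes with a match rose on starvation by 2.18-fold (Atf3, shBruce MEFs) to 12.3-fold (Chac1, shRenilla MEFs). The genes without a match rose too, by 1.87-fold (Cebpb) to 17.9-fold (Trib3), both in shRenilla MEFs. The stretches below are those around the matches. Each is printed 5′ to 3′ on the gene's strand, with the matched letters in capitals.
Chac1, chr2:119351009-119351096, plus strand, match 193 bases before the start: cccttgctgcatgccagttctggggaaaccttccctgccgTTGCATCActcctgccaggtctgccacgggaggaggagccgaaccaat
Atf3, chr1:191183396-191183483, minus strand, match 110 bases before the start: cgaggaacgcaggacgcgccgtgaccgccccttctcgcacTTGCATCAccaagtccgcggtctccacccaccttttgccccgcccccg
Nupr1, chr7:126625533-126625620, minus strand, match 110 bases before the start: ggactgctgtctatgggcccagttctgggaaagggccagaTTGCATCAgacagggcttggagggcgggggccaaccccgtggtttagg
Ppp1r15a, chr7:45526269-45526320, minus strand, match 12 bases before the start: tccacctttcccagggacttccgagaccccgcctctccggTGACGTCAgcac
The 3 CARE matches share the same 8 letters, TTGCATCA, the reverse complement of a TGATGNAA site.

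The 10 genes lie on 5 chromosomes (GRCm38, GENCODE M21), and reads over their exons make up the counts. Trib3 (chr2:152337422-152344032, minus strand), Chac1 (chr2:119351229-119354381, plus) and Cebpb (chr2:167688915-167690418, plus, a gene of 1 exon) are on chromosome 2. Atf5 (chr7:44812256-44816658, minus), Ppp1r15a (chr7:45522916-45526268, minus) and Nupr1 (chr7:126623249-126630861, minus) are on chromosome 7. Ddit3 (chr10:127290774-127296288, plus) and Ddit4 (chr10:59949669-59951834, minus) share chromosome 10, Atf4 is at chr15:80255184-80257541 (plus) and Atf3 at chr1:191170296-191218039 (minus).

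The libraries held between 7717265 and 18510540 counts, with shBruce Starv replicate 1 the shallowest. That library nevertheless had the most genes with a count over 0, 16350, against 15107 in shRenilla Starv replicate 2, the next. Birc6 had means of 4339 normalized counts in shRenilla FM and 1287 in shBruce FM, and 4086 and 1035 after starvation, and each shBruce library lay below each shRenilla library. Its fall passed the test in Starv (log2 fold change -1.98, adjusted p = 0.0186, edgeR) and not in FM (-1.75, adjusted p = 0.0627). Over 21 alternatives the FM difference of Birc6 ran from -1.92 to -1.42 and passed in 8, and the Starv difference ran from -2.20 to -1.46 and missed the threshold in 3: with only the groups compared and without shRenilla Starv replicate 1 or 2. The 10 fibroblast markers, of which 9 passed the filter on low counts, summed to 130241 to 198531 normalized counts per library. Thy1, a marker of many fibroblasts, had at most 2.45 in any library. The 5 immune markers summed to 72.4 to 145.5, most of it from Cd68 (58.5 to 132), with Ptprc at 0.943 to 18.2 and Cd3e at 0 in every library. The 3 shBruce Starv libraries lay farther from each other than the replicates of the other conditions did, and the libraries differed in how they weighted short against long transcripts, which is taken up with the line difference below.

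Starvation raised all 10 genes in shRenilla MEFs and all 10 in shBruce MEFs. In shRenilla MEFs, the median log2 fold change of the 10 genes was 1.55, against -0.01 over all genes tested, and 2061 of the 12154 genes (17.0%) passed the test, with 9.69% of all genes called higher. In shBruce MEFs the median was 1.26, against 0.02 over all genes, and 2790 genes (23.0%) passed, with 12.4% of all genes called higher. No starved library of either line overlapped the FM libraries of that line for any of the 10 genes, a separation seen upwards in 25.9% of all genes in shRenilla and in 16.2% in shBruce MEFs. Normalized counts are counts scaled to a common library size, log2 fold changes carry a standard error (SE), and a gene passed where its p, adjusted across the 12154 genes, was under 0.05 (edgeR quasi-likelihood test, Benjamini-Hochberg adjustment). In this bulk RNA fewer cells with a transcript and less of it per cell cannot be told apart.

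**Figure D1:**
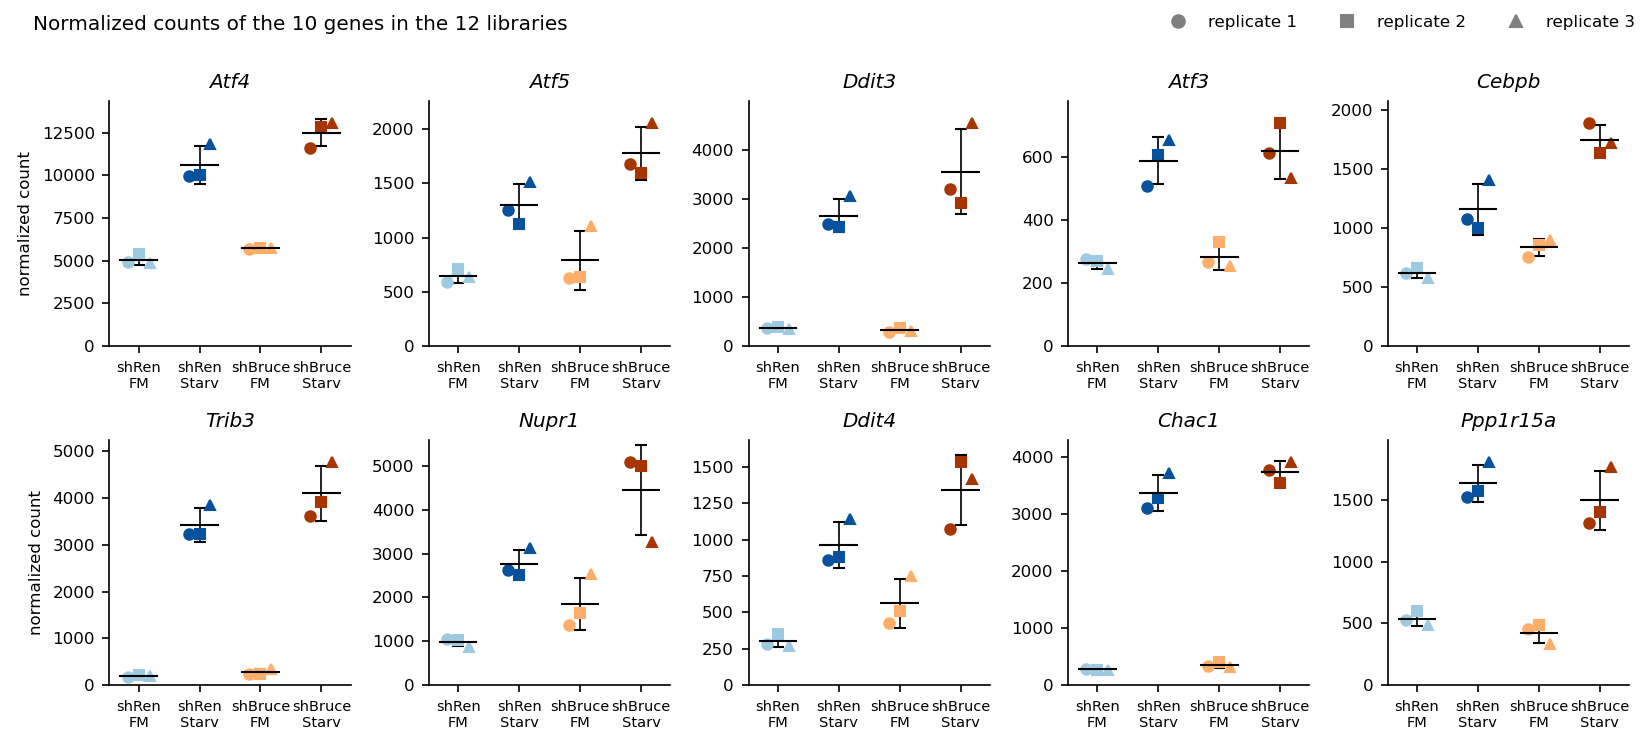
Normalized counts (vertical axis, starting at 0, its own scale for each gene) of the 10 genes in the 4 conditions, with a symbol for each replicate library, a bar for the mean and whiskers for 1 SD (n = 3). In every panel the 3 starved libraries of a line sit above its 3 FM libraries; shRenilla Starv replicate 3 is the highest of its condition in all 10 panels.

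Atf4, the regulator at the head of the response, was the most abundant of the 10. In shRenilla MEFs its normalized counts were 4926, 5371 and 4862 in FM replicates 1 to 3 and 9943, 10006 and 11873 in Starv. The shBruce libraries had 5700, 5764 and 5749 in FM and 11611, 12839 and 13062 in Starv. The starved libraries lay far above the FM libraries, on a level that was already high. Its log2 fold change was 1.07 ± 0.11 (SE; adjusted p = 4.24e-05, edgeR) in shRenilla and 1.12 ± 0.11 (adjusted p = 2.3e-05) in shBruce MEFs.

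Atf5, a bZIP factor whose mRNA is under a like translational control, changed about as much as Atf4 with a wider spread. It had 589, 711 and 634 normalized counts in shRenilla FM and 1251, 1128 and 1515 in shRenilla Starv. In shBruce MEFs, FM gave 628, 633 and 1106 and Starv gave 1679, 1600 and 2054. The high value belongs to shBruce FM replicate 3, and without that library the shBruce log2 fold change went from 1.17 to 1.49. Atf5 overlaps Nup62 on the other strand, and the strand setting of the counting is not given in the sources used here. Nup62 was itself higher in Starv, going from a mean of 2216 to 2901 normalized counts in shRenilla (log2 fold change 0.39, adjusted p = 0.02, edgeR). In shBruce MEFs it went from 2262 to 3096 (0.45, adjusted p = 0.00696, edgeR). Nup62 was thus more abundant than Atf5, and the part of its reads in the Atf5 counts was not tested.

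Ddit3 encodes CHOP, the bZIP partner that ATF4 induces and that is known for its part in cell death under lasting stress. Its normalized counts in shRenilla MEFs were 369, 395 and 347 in FM and 2489, 2434 and 3054 in Starv. In shBruce MEFs they were 290, 370 and 313 in FM and 3193, 2925 and 4542 in Starv. This is a 7.18-fold rise (95% confidence interval 5.50 to 9.37) in shRenilla and a 10.96-fold rise (8.33 to 14.4) in shBruce MEFs, with every FM library under every starved one. Mars, the methionyl-tRNA synthetase gene that overlaps Ddit3 on the other strand, had log2 fold changes of 0.23 and 0.17 that did not pass the test, far under the 2.84 and 3.45 of Ddit3.

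Atf3, an ATF/CREB factor that stress and growth signals both induce, had 276, 269 and 243 normalized counts in shRenilla FM and 505, 604 and 651 in Starv. The shBruce libraries gave 266, 330 and 253 in FM and 612, 705 and 532 in Starv. Its rise of 1.16 ± 0.15 on the log2 scale in shRenilla (adjusted p = 0.000253, edgeR) and 1.12 ± 0.15 in shBruce MEFs (adjusted p = 0.000286) was close to that of Atf4.

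Cebpb, a C/EBP factor that forms dimers with ATF4 and CHOP, showed the smallest rise of the 10 in both lines. In shRenilla MEFs it went from 620, 659 and 577 normalized counts in FM to 1073, 999.5 and 1404 in Starv. In shBruce MEFs it went from 756, 853 and 894 to 1885, 1631 and 1716. The log2 fold changes were 0.90 ± 0.14 (adjusted p = 0.000754, edgeR) and 1.06 ± 0.14 (adjusted p = 0.00021), and Tmem189, which overlaps Cebpb on the other strand, did not pass the test in either line (-0.18 and -0.37).

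Trib3, a pseudokinase that binds ATF4 and CHOP and restrains them, was the lowest of the 10 per kilobase in FM and had the largest fold change. It had 182, 208 and 184 normalized counts in shRenilla FM and 3223, 3224 and 3851 in Starv. The shBruce values were 232, 226 and 353 in FM and 3623, 3916 and 4767 in Starv. The 17.9-fold rise in shRenilla MEFs (95% confidence interval 13.4 to 23.9) was the largest fold of the 10 and ranked 3rd of the 12154 genes by the size of the log2 fold change, and the 15.2-fold rise in shBruce MEFs (11.4 to 20.2) ranked 10th.

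Chac1, a gamma-glutamyl cyclotransferase that degrades glutathione, was the most regular of the strong responders. Its shRenilla libraries held 286, 271 and 269 normalized counts in FM and 3116, 3288 and 3728 in Starv. In shBruce MEFs the counts were 338, 404 and 315 in FM and 3777, 3547 and 3910 in Starv. With log2 fold changes of 3.62 ± 0.13 (adjusted p = 6.61e-09, edgeR) and 3.41 ± 0.13 (adjusted p = 1.25e-08), Chac1 had the smallest p of all genes tested in each line.

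Nupr1, a small chromatin-associated stress protein, varied more between the shBruce than between the shRenilla libraries. Its shRenilla values were 1055, 1037 and 875 normalized counts in FM and 2629, 2521 and 3138 in Starv. The shBruce line gave 1369, 1651 and 2525 in FM and 5089, 5002 and 3269 in Starv, with its highest FM library close to its lowest starved one. The fold was 2.79 (95% confidence interval 2.00 to 3.90) in shRenilla and 2.41 (1.73 to 3.35) in shBruce MEFs.

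Ddit4 encodes REDD1, which inhibits the growth kinase complex mTORC1. In shRenilla MEFs it had 282, 351 and 272 normalized counts in FM and 862, 883 and 1142 in Starv. In shBruce MEFs it had 425, 510 and 747 in FM and 1070, 1531 and 1415 in Starv. The log2 fold change was 1.68 (95% confidence interval 1.21 to 2.14) in shRenilla and 1.26 (0.80 to 1.71) in shBruce MEFs, with the shBruce FM level above the shRenilla FM level in every library.

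Ppp1r15a, whose product GADD34 reverses the phosphorylation of eIF2alpha, was the only one of the 10 with a lower mean in shBruce than in shRenilla MEFs in both media. Its normalized counts were 524, 598 and 487 in shRenilla FM and 1524, 1574 and 1806 in Starv. They were 450, 483 and 331 in shBruce FM and 1316, 1406 and 1770 in Starv. The log2 fold changes were 1.61 ± 0.16 (adjusted p = 3.51e-05, edgeR) and 1.83 ± 0.17 (adjusted p = 1.16e-05).

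**Figure D2:**
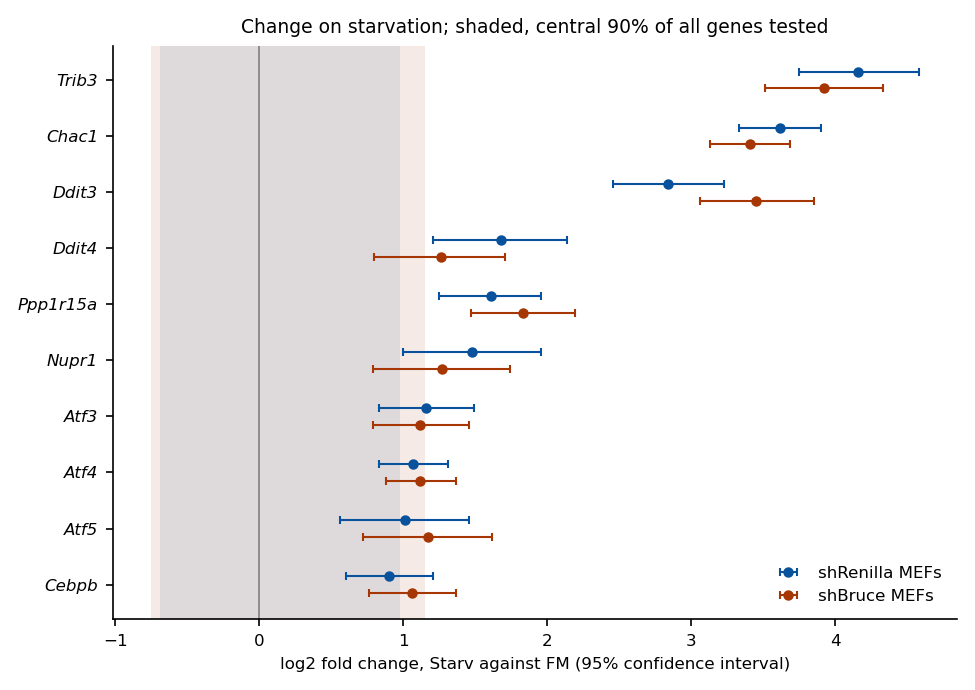
Log2 fold change of Starv against FM (horizontal axis) for each of the 10 genes in shRenilla (blue) and shBruce (brown) MEFs, with 95% confidence intervals. The shaded bands hold the central 90% of all genes tested, -0.69 to 0.98 in shRenilla and -0.75 to 1.15 in shBruce MEFs; Trib3, Chac1 and Ddit3 lie far to the right of the other 7 genes in both lines.

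The 10 genes fell into a strong and a moderate group by size. Trib3, Chac1 and Ddit3 rose between 7.18-fold and 17.9-fold, while the other 7 rose between 1.87-fold (Cebpb, shRenilla) and 3.56-fold (Ppp1r15a, shBruce). The moderate group included Atf4 and Atf5, and the rises of Cebpb in shRenilla and of Atf4, Atf3 and Cebpb in shBruce MEFs lie inside the central 90% of all genes by size. With 3 libraries against 3, an exact two-sided permutation test of 1 gene cannot go below p = 0.1, the value reached by each of the 10 genes in each line.

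Levels between genes were compared as normalized counts per kilobase of the longest coding transcript in the annotation. In shRenilla FM the order ran from Atf4 at 2929 ± 161 (SD, n = 3) and Nupr1 at 1193 ± 120 through Ddit3 at 416 ± 27.2 and Cebpb at 412 ± 27.3, whose ranges overlap, down to Atf3 at 132 ± 8.77 and Trib3 at 94.5 ± 7.29 at the bottom. After starvation Atf4 stayed on top at 6149 ± 636, and Nupr1 at 3333 ± 397 and Ddit3 at 2988 ± 385 followed with overlapping ranges. Chac1 at 2063 ± 193 and Trib3 at 1694 ± 179 came next, without overlap, so that Trib3 moved from the 10th to the 5th place and Chac1 from the 8th to the 4th. Cebpb, Atf5, Ppp1r15a and Ddit4 then formed a chain of overlapping ranges between 771 and 548, and Atf3 was last at 296 ± 37.6. The order in shBruce Starv had the same first 7 places, led by Atf4 at 7249 ± 453 and Nupr1 at 5372 ± 1238 per kilobase.

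Whether the response to starvation differed between the lines was tested by the interaction of line and medium. None of the 10 genes passed, in a test that called 0 of the 12154 genes (0%) with edgeR and 0 with DESeq2 and limma-voom, and 474 genes at an unadjusted p under 0.05. Ddit3 was the 1 gene of the 10 under that unadjusted level: its rise was larger in shBruce MEFs by 0.61 ± 0.24 on the log2 scale (95% confidence interval 0.10 to 1.12, adjusted p = 0.806, edgeR). That difference ran from 0.35 to 0.73 over 20 alternatives, and with length and GC trends removed it was 0.41 and none of the 10 genes was under the unadjusted level. The largest difference the other way was that of Ddit4, -0.42 (-1.06 to 0.22, adjusted p = 0.806). For the genes with the tightest libraries the interval is narrow: the shBruce response of Atf4 differed from the shRenilla response by 0.05 (-0.28 to 0.39) and that of Chac1 by -0.21 (-0.57 to 0.16). These intervals leave room for differences of up to 1.31-fold for Atf4 and more for the others, so equal responses are not shown.

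In FM, shBruce was compared with shRenilla MEFs to see the level of the pathway before stress. No gene of the 10 passed the test, which called 0 of the 12154 genes (0%) with edgeR, while 1750 genes and 5 of the 10 had an unadjusted p under 0.05. The 5 were Nupr1 (log2 fold change 0.90, adjusted p = 0.246), Ddit4 (0.90, 0.246), Trib3 (0.50, 0.303), Chac1 (0.36, 0.302) and Cebpb (0.43, 0.297), all with higher means in shBruce MEFs. In 6 genes, these 5 and Atf4, each shBruce library lay above each shRenilla library, which is so for 16.4% of all genes, and in Ppp1r15a each lay below, which is so for 17.0%. DESeq2, which called 76 genes, called Nupr1 and Ddit4. Those same genes are raised in shBruce FM replicate 3, where Nupr1 stood at 2525 and Ddit4 at 747, and without that library their log2 fold changes were 0.61 and 0.63. The other 5 genes gave 0.29 (95% confidence interval -0.16 to 0.74) for Atf5, 0.18 (-0.06 to 0.42) for Atf4, 0.11 (-0.23 to 0.44) for Atf3, -0.19 (-0.56 to 0.18) for Ddit3 and -0.35 (-0.70 to 0.01) for Ppp1r15a.

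In Starv, 2 of the 10 genes, Cebpb and Nupr1, were higher in shBruce than in shRenilla MEFs, in a comparison that called 2907 of the 12154 genes (23.9%). The log2 difference was 0.59 for Cebpb (95% confidence interval 0.29 to 0.89, adjusted p = 0.0227, edgeR) and 0.69 for Nupr1 (0.22 to 1.16, adjusted p = 0.0392). The libraries did not overlap for these and for Atf5 (log2 fold change 0.46, adjusted p = 0.113), 3 genes, where 16.4% of all genes had all shBruce libraries above. Of the rest, Ddit4 (0.48, adjusted p = 0.0998) and Ddit3 (0.42, adjusted p = 0.0757) came next by size, and Ppp1r15a (-0.12, adjusted p = 0.577) had the 1 lower mean. None of the 10 lay wholly below, as 18.5% of all genes did. A share of 2 in 10 is near the 23.9% of all genes, so the count says nothing particular about these genes. Neither call held when any 1 of shRenilla Starv replicate 1, shRenilla Starv replicate 2, shBruce Starv replicate 1 or shBruce Starv replicate 2 was left out. In turn, those fits called 0, 0, 573 (4.68%) and 15 (0.122%) of all genes, so most calls of the whole comparison were lost. The log2 differences in them stayed between 0.49 and 0.63 for Cebpb and between 0.57 and 0.65 for Nupr1. Nupr1 alone also missed the threshold without shRenilla FM replicate 1, shRenilla FM replicate 3 or shBruce FM replicate 2, with adjusted p between 0.0515 and 0.0567 (edgeR). Without shBruce FM replicate 3, 3 of the 10 genes passed, as did 23.6% of all genes. The comparison between lines shares its libraries with the starvation comparisons, and their values are not independent.

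**Figure D3:**
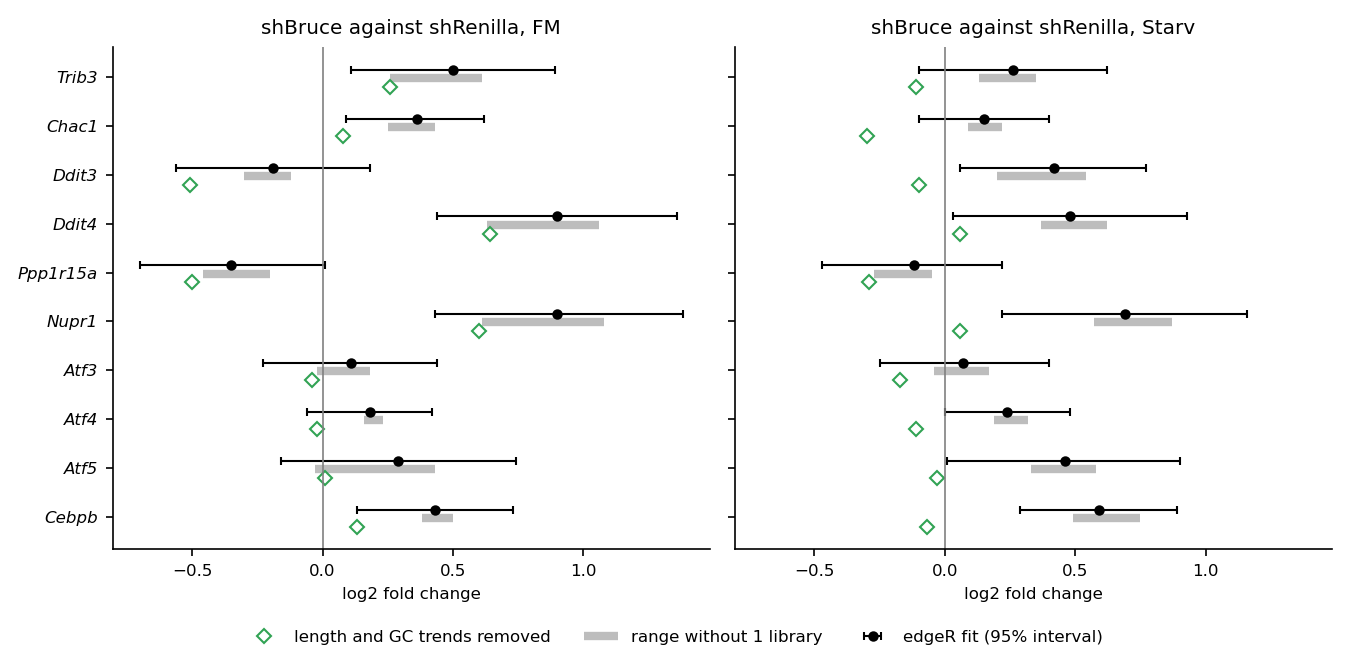
Difference between shBruce and shRenilla MEFs on the log2 scale (horizontal axis, above 0 where shBruce is higher) for the 10 genes in FM (left) and Starv (right). Black points are the edgeR values with 95% confidence intervals, grey bars the range when each of the 12 libraries is left out, and green diamonds the values once each library's trend with transcript length and GC content is removed; in Starv 8 of the 10 diamonds lie below 0, where 9 of the 10 points lie above.

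A property of the libraries moved with the line difference. The median log2 value of short transcripts (at most 1500 bases) minus that of long ones (at least 5000 bases), each gene taken relative to its mean over libraries, ran from -0.68 to 0.04 in the 6 shRenilla libraries and from -0.12 to 0.76 in the 6 shBruce libraries. After a correction that takes out how each library depends on transcript length and GC content, the median difference of the 10 genes between the lines in Starv went from 0.34 to -0.10, with 2 genes above 0 in place of 9. Cebpb went from 0.59 to -0.07 and Nupr1 from 0.69 to 0.06, and neither passed the test. In FM the median went from 0.32 to 0.04, while Nupr1 (0.60) and Ddit4 (0.64) kept their sign and Ddit3 went further down, from -0.19 to -0.51. The starvation changes of the 10 genes kept their sign, with medians of 1.68 in shRenilla and 1.18 in shBruce MEFs and all 10 genes called in each line. The smallest change in shBruce MEFs went from 1.06 to 0.76. For the interaction, the median of the 10 genes went from 0.01 to -0.17, with 2 genes above 0 in place of 5, and none passed. Which of the trends come from the libraries and which from the cells was not tested.

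**Figure D4:**
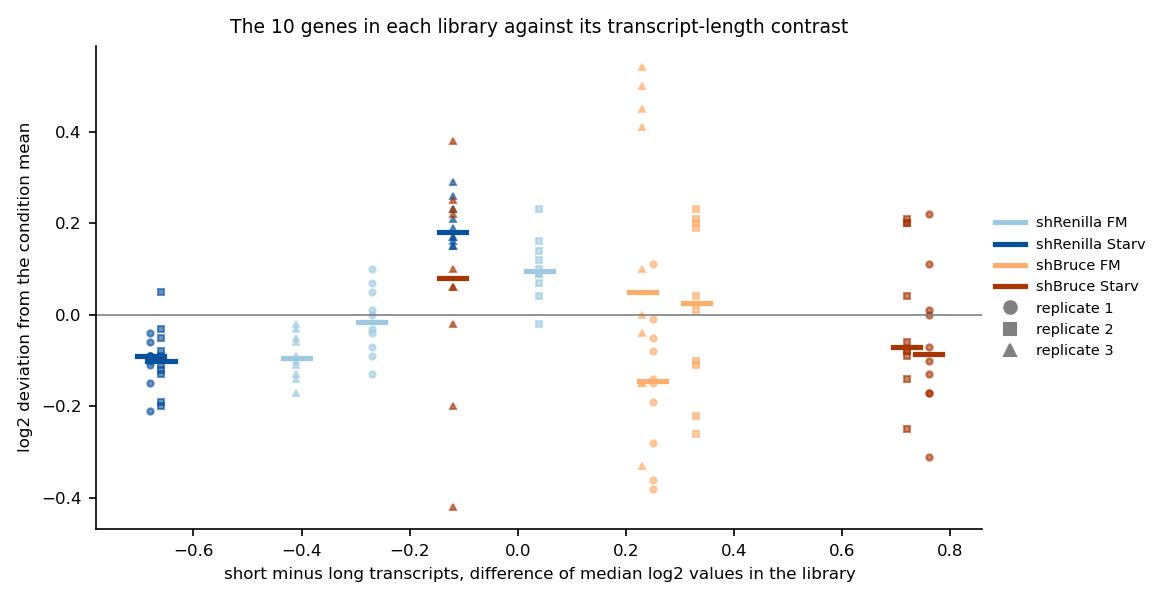
Log2 deviation of each of the 10 genes from its condition mean (vertical axis) in each library, against the library's difference between short and long transcripts (horizontal axis). Small symbols are genes, shaped by replicate and coloured by condition, and bars are the median of the 10 genes. In each shRenilla condition the library with the highest contrast has the highest bar, 0.18 in Starv replicate 3 and 0.09 in FM replicate 2, whereas in shBruce Starv the library with the lowest contrast, replicate 3, has the highest bar (0.08).

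Within the shRenilla conditions, most of the 10 genes were highest in the same library. shRenilla Starv replicate 3 was the highest of its condition for all 10 genes, where 45.8% of all genes tested had their highest value there, and shRenilla FM replicate 2 for 7 of the 10 (40.2% of all genes). These are the libraries with the higher short-transcript contrast of their conditions (-0.12 and 0.04) and with the lowest Birc6 counts of the control line, 2787 and 3273. The Birc6 transcript is 15768 bases long, and those of the 10 genes 829 to 2809. With the trends removed, the SD of log2 values became smaller in 10 of the 10 genes in shRenilla Starv (median 0.17 before and 0.06 after). It became smaller in 9 of the 10 in shRenilla FM (0.11 and 0.08). The median over all genes fell too, from 0.13 to 0.08 in shRenilla Starv and from 0.12 to 0.08 in shRenilla FM. In shBruce FM, replicates 2 and 3 were each the highest for 5 genes (33.2% and 39.7% of all genes). In shBruce Starv, replicate 3 had the lowest contrast of its condition (-0.12, against 0.76 and 0.72) and yet the highest median of the 10 genes (0.08). This is the opposite of the shRenilla order. The library also had the highest value of 6 of the 10 genes, where 41.5% of all genes tested had theirs. In that library Ddit3 lay 0.38 and Ppp1r15a 0.25 above their condition means on the log2 scale, while Nupr1 lay at -0.42 and Atf3 at -0.20. With trends removed, the SD in shBruce Starv became smaller in 2 of the 10 only. Its median went from 0.20 to 0.30, with Ddit3 at 0.66, while that of all genes went from 0.32 to 0.27. In shBruce FM, replicate 3 stood out for Atf5, Nupr1, Ddit4 and Trib3 at once, while Ppp1r15a had its lowest value in that library.

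Genes with a pattern most like that of each of the 10 were found by the root mean square difference of centred log2 values over the 12 libraries, which runs from 0 for the same pattern. Atf4 was nearest to Tmem55b (0.08), Slc25a45 (0.10) and Efna1 (0.10), against a median of 0.64 over all genes. Ddit3 was nearest to Fbxo32 (0.24), Herpud1 (0.27) and Gpr146 (0.27), and Chac1 to Herpud1 (0.28), Fbxo32 (0.31) and Adck3 (0.31). Outside the 10, Trib3 was nearest to Herpud1 (0.54), Fgf21 (0.56) and Adck3 (0.59), and it was nearer to Chac1 at 0.36. The median over all genes was 1.61 for Ddit3, 1.79 for Chac1 and 2.06 for Trib3. Each value is therefore to be read against the median of its own gene. Atf5 was nearest to H1f0 (0.14), Sqstm1 (0.15) and Arvcf (0.16), Cebpb to Prr24 and Pard6a (0.12 each) and Chchd5 (0.13), and Atf3 to Tmem55b (0.16), Cdt1 (0.17) and Ap5z1 (0.18). Nupr1 was nearest to Eif4ebp1 (0.21), Ddit4 to Pck2 (0.23), and both next to Tmem53 (0.28 and 0.25), with 1190002F15Rik (0.28) and Bbc3 (0.28) in the 3rd place. Ppp1r15a stood apart from the other 9, of which Atf3 was nearest at 0.39, and was nearest to Apobec1 (0.14), Atg14 (0.16) and Letm2 (0.16). These are descriptions over the same 12 libraries, chosen from all genes tested, and share depth and the length contrast.

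Around the 10 genes, the known targets of ATF4 were counted by what they do. The lists were written from general knowledge with earlier results of these data known, so their counts are descriptions, to be read against the 17.0% of all genes that passed in shRenilla and the 23.0% in shBruce MEFs. Of 11 amino acid carriers, 10 rose in shRenilla and 9 in shBruce MEFs and none fell, with a median log2 fold change of 1.25 and 1.03. Slc7a11, the cystine carrier, went from 66.4 ± 16.0 to 579 ± 116 normalized counts (SD, n = 3; log2 fold change 3.12, adjusted p = 0.000105, edgeR) in shRenilla MEFs. In shBruce MEFs it went from 72.5 ± 50.7 to 345 ± 71.4 (2.24, adjusted p = 0.000929). The glycine carrier Slc6a9 rose by 2.24 in shRenilla and 1.59 in shBruce MEFs, and the neutral amino acid carrier Slc1a4 by 2.16 and 1.89.

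Of 15 genes of amino acid synthesis and one-carbon metabolism, 9 rose in shRenilla and 5 in shBruce MEFs and none fell. Gpt2, an alanine aminotransferase, rose by 2.06 (adjusted p = 0.000111, edgeR) and 1.67 (adjusted p = 0.000421) on the log2 scale. Pck2, the mitochondrial PEP carboxykinase, rose by 1.80 in shRenilla and 1.38 in shBruce MEFs. Aldh1l2 rose by 1.85 in shRenilla MEFs and had a value of 0.98 in shBruce MEFs that did not pass (adjusted p = 0.0803, edgeR). The shBruce count was 10 of 15 without shBruce Starv replicate 1, 9 without shBruce FM replicate 3 and 3 without either of the other FM libraries. Of 12 tRNA synthetases, 9 rose in shRenilla and 6 in shBruce MEFs, none fell, and the changes were small: Aars 0.86 and 0.62 and Cars 0.67 and 0.71. The shRenilla count was 3 without shRenilla FM replicate 1 or 3 and 4 without shRenilla FM replicate 2, and the shBruce count was 9 without shBruce Starv replicate 1 and 0 when only the groups compared were used.

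Of 18 other ATF4 and CHOP targets tested, 12 rose and 1 fell in each line. Herpud1, an ER-associated degradation protein, rose by 3.07 and 3.01, and Sesn2, an inhibitor of mTORC1, by 2.93 and 2.38. The gene that fell in both lines was Tnfrsf10b, the death receptor DR5 that CHOP is known to induce: it went from 1002 ± 32.7 to 543.5 ± 5.29 normalized counts in shRenilla (log2 fold change -0.88, adjusted p = 9.01e-05, edgeR) and from 1033 ± 10.5 to 496 ± 34.7 in shBruce MEFs (-1.06, adjusted p = 1.96e-05).

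The ER arm of the unfolded protein response, which is known to share ATF4 and CHOP through PERK, was compared through 19 targets of XBP1 and ATF6. Dnajb9, an ER co-chaperone, was the 1 gene of this list that rose in each line, by 1.89 in both. Herpud1, counted above with the ATF4 and CHOP targets, was not part of this list. Creld2 fell in shRenilla MEFs (-0.53, and -0.40 in shBruce, which did not pass). Hyou1 (-0.56) and Edem1 (-0.57) fell in shBruce MEFs, with -0.15 and -0.14 in shRenilla that did not pass. The median of the list was -0.15 in shRenilla and -0.22 in shBruce MEFs. The count of genes that fell ran from 0 to 5 in shRenilla and from 0 to 7 in shBruce MEFs over the 21 alternatives.

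**Figure D5:**
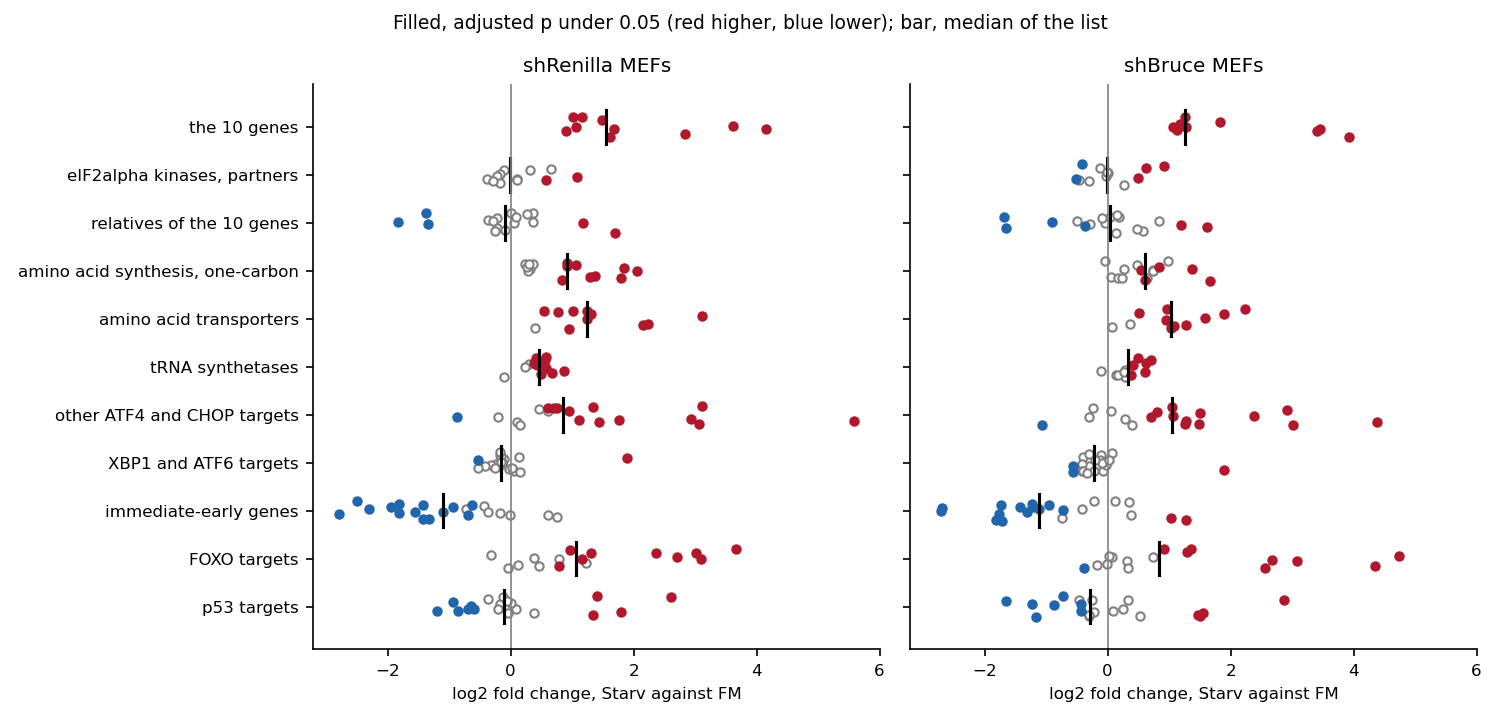
Log2 fold change of Starv against FM (horizontal axis) of the 10 genes and of the genes in each wider list (rows) in shRenilla (left) and shBruce (right) MEFs. Filled points passed at an adjusted p under 0.05, red as higher and blue as lower, open points did not, and black bars are medians; the lists of ATF4 targets lie mostly to the right of 0, the immediate-early genes mostly to the left and the XBP1 and ATF6 targets around 0.

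Upstream of the 10 genes, the list of 12 genes for eIF2alpha kinases, their partners and the phosphatase gave 2 that rose in shRenilla MEFs, and 3 that rose and 2 that fell in shBruce MEFs. Impact, a GCN2 inhibitor, rose in both lines (1.08, adjusted p = 0.00102, and 0.63, adjusted p = 0.0226, edgeR), and so did Ppp1r15b, the constitutive counterpart of Ppp1r15a (0.57, adjusted p = 0.0266, and 0.49, adjusted p = 0.0412, edgeR). In shBruce MEFs, Eif2ak4, the gene of GCN2, fell by 0.52 on the log2 scale and Eif2s1, that of eIF2alpha itself, by 0.42, while Eif2ak2 rose by 0.92. Their shRenilla values, which did not pass, were -0.38, -0.22 and 0.10. The shRenilla count was 1 when any 1 of the 6 shRenilla libraries was left out, and no gene of this list rose in shBruce MEFs when only the groups compared were used.

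The relatives of the 10 genes did not follow them as families. Of 17 other ATF, C/EBP, TRIB, CHAC and DDIT4 relatives tested, 2 rose and 3 fell in shRenilla and 2 rose and 4 fell in shBruce MEFs. Jdp2, a bZIP factor, rose by 1.69 and 1.61, and Cebpg, a C/EBP dimer partner of ATF4, by 1.17 and 1.19. Trib1, the paralogue of Trib3, went from 1051 ± 20.2 to 296 ± 13.2 normalized counts in shRenilla (-1.83, adjusted p = 4.83e-05, edgeR) and from 1098 ± 6.80 to 340 ± 126 in shBruce MEFs (-1.68, adjusted p = 7.91e-05), opposite to the rise of Trib3. Trib2 also fell in both lines (-1.35, adjusted p = 0.00238, and -1.66, adjusted p = 0.000698, edgeR), as did Cebpd (-1.37, adjusted p = 6e-04, and -0.90, adjusted p = 0.00648), opposite to Cebpb.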

How the data were processed

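The 12 libraries are single-end 50-base reads of poly(A) RNA. The deposited values are raw counts of reads per gene, which the authors made by removing ribosomal RNA reads, aligning to mm10 with STAR 2.4.0d and counting with HTSeq 0.5.4p3. The gene annotation, the strand setting and the treatment of overlapping genes are not given in the sources used here. Date-like symbols (27, with 0.296% of counts) were kept as they stand.

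Genes with low counts were filtered with edgeR 4.0.16 (R 4.3.3), libraries were scaled by TMM, and 1 quasi-likelihood model over the 4 conditions was fitted to the 12154 genes left. Contrasts gave the starvation change in each line, the line difference in each medium and their interaction, with Benjamini-Hochberg adjustment over all genes and a threshold of 0.05. Log2 CPM used a prior count of 2. Normalized counts are counts divided by the TMM-scaled size of their library, with sizes set to a geometric mean of 1. Lengths and GC content come from the longest protein-coding GENCODE M21 transcript (99.2% of the genes tested had both), and their trends were splines of 4 degrees of freedom. Intervals cover 95%. The code was tested on simulated data.

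Alternatives were DESeq2 1.42.0 (size factors and Wald test), limma-voom (limma 3.58.1), 2 other filters, a fit of only the libraries in a comparison, a block for replicate number, the length and GC correction with and without that block, and each of the 12 libraries left out. The text names all 10 genes, Birc6, the 3 genes nearest to each in pattern, and from each wider list up to 2 rising and 2 falling genes of largest change with a mean of at least 50 normalized counts. Eif2s1 and the other named list genes follow that rule, and overlapping neighbours were added for their position. The members and lists were chosen with earlier results of these data known.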

Additional observations from a re-analysis of the deposited data

How the results depend on the processing

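The rise of the 10 genes on starvation kept its direction and its call under all 21 alternatives in each line. Between the lines in FM, 2 of the 10 genes were called with the DESeq2 Wald test (0.625% of all genes). With only the groups compared, 3 were called (5.11% of all genes). Between the lines in Starv, the 2 calls became 0 with only the groups compared, where 0% of all genes were called. They became 1 with the replicate block (15.9% of all genes), 0 with length and GC trends removed (4.78%) and 0 with both (0.00823%). With 1 library left out they ran from 0 (without shRenilla Starv replicate 1, 0% of all genes) to 3 (without shBruce FM replicate 3, 23.6%). The labels do not say that a replicate number marks a shared batch. Of 18 same-number pairs, 5 had a correlation over 0.1 (r from -0.46 to 0.35), and 4 of 12 libraries correlated best with their own number. With 3 libraries in a condition that also differ in their length contrast, these correlations cannot decide whether the samples are paired. Using only the groups compared could not be run for the interaction.

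Genes of the wider lists called on starvation in shBruce MEFs were 50 with only the groups compared (8.11% of all genes), against 80 (23.0%). Between the lines in FM they were 4 with only the groups compared (5.11% of all genes), against 0 (0%). With a library left out they ran from 0 to 1, the 1 without shBruce Starv replicate 3 (0.261%). In Starv they were 22 (23.9% of all genes), and 34 with the DESeq2 Wald test (31.1%). They were 0 with only the groups compared (0%) and 14 with the replicate block (15.9%). With trends removed they were 5 (4.78%), and 0 with trends removed and the block (0.00823%). With a library left out they ran from 0 to 65, the 65 without shBruce Starv replicate 3 (46.7%).

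Directions that turned are given as log2 values with trends removed, then with trends removed and the replicate block. In FM they were -0.02 and -0.02 for Atf4 and -0.04 and -0.05 for Atf3, and for Atf5 -0.04 with the block. In Starv they were -0.11 and -0.11 for Atf4, -0.03 and -0.07 for Atf5, -0.10 and -0.16 for Ddit3, -0.17 and -0.17 for Atf3, -0.07 and -0.08 for Cebpb, -0.11 and -0.15 for Trib3, and -0.30 and -0.31 for Chac1. The interaction gave -0.08 and -0.09 for Atf4, -0.04 and -0.03 for Atf5, and -0.20 and -0.21 for Cebpb. With 1 library left out, the line difference of Atf5 in FM ran from -0.03 to 0.43, the Atf3 difference from -0.02 to 0.18 (FM) or -0.04 to 0.17 (Starv), the interaction of Atf3 from -0.15 to 0.09 and that of Nupr1 from -0.39 to 0.08. The change of Birc6 on starvation in shRenilla MEFs, which did not pass, ran from -0.26 to 0.13. The cause of these turns was not tested.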

Other observations

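Atf3 is also counted among serum-induced genes, and such immediate-early genes moved against it. Of 21 immediate-early genes, 14 fell and none rose in shRenilla MEFs, and 13 fell and 2 rose in shBruce MEFs, with medians of -1.10 and -1.12. Nr4a1, an orphan nuclear receptor, went from 697.5 ± 64.1 to 124 ± 10.9 normalized counts in shRenilla (SD, n = 3; log2 fold change -2.49, adjusted p = 8.38e-07, edgeR) and from 777 ± 131 to 118 ± 16.7 in shBruce MEFs (-2.71, adjusted p = 3.5e-07). Ier3 fell by 2.79 and 2.69 on the log2 scale, and the genes that rose in shBruce MEFs were Klf2 (1.28) and Klf4 (1.03), with 0.75 and 0.61 in shRenilla MEFs that did not pass.

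Genes of a list of FOXO targets, which also holds the factors Foxo1, Foxo3 and Foxo4, rose beside the 10 genes. Of 16, 9 rose and none fell in shRenilla and 8 rose and 1, Cited2 (-0.39, and -0.32 in shRenilla, which did not pass), fell in shBruce MEFs. Txnip, an inhibitor of glucose uptake, rose by 3.66 and 4.34, and Fbxo32, a muscle atrophy ubiquitin ligase, by 3.09 and 3.08. Of 20 p53 targets, 4 rose and 6 fell in shRenilla and 4 rose and 7 fell in shBruce MEFs. Gadd45a, which ATF4 is also known to induce, rose by 2.60 and 2.87 and Trp53inp1 by 1.40 and 1.55, while Plk2 (-1.20 and -1.66) and Btg2 (-0.94 and -1.23) fell. Between the lines in Starv, 23.9% of all genes were called. Of the 166 entries of all wider lists, some of them the same gene, 10 genes were higher in shBruce MEFs and 12 lower. Among them Slc38a2 (-0.54) and Iars (-0.52) were lower and Eif4ebp1 (0.55) and Cars (0.50) higher, with adjusted p between 0.0285 and 0.043 (edgeR). The number of such calls depends on the libraries. All wider lists together gave between 0 and 65 calls in Starv when 1 library was left out. The fit with 65 called 46.7% of all genes.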
